A study of Mus musculus with 49 samples.

Results

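The comparison described here is arsenate at 10 ppm in drinking water for 1 week against plain water for 1 week, in mouse urinary bladder. Its members were chosen by array title and are 10 of the 49 arrays of the study: 5 arrays of mice given 10 ppm and 5 of water controls. All mice were female C57Bl/J adults, with no genetic change named in the labels, and both groups were 76 days old at harvest. Each array (Affymetrix Mouse430_2, an oligonucleotide chip that reads transcripts with sets of short probes) held RNA of the bladder of 1 mouse, with no pooling. The other mice of the same harvest drank 0.5 ppm (4 arrays), 2 ppm (5 arrays) or 50 ppm (5 arrays), and a second harvest at 12 weeks, at 155 days of age, had the same doses. Mouse identifiers in the labels carry a first number that all mice of a group share, whose meaning is not given, so that whatever it stands for cannot be told apart from the dose.

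Arsenate is the pentavalent form of inorganic arsenic. Cells reduce it to arsenite, which binds thiols, and methylate it with the enzyme As3mt; much of the product leaves through the urine, so the bladder lining meets it at high concentration, and the bladder is a known target of arsenic carcinogenesis. The bladder wall holds a urothelium of basal, intermediate and umbrella cells, a connective tissue layer with vessels, and the detrusor smooth muscle. Thiol binding and oxidative stress are known to switch on heat shock genes, NRF2 targets such as Hmox1 and Nqo1, and the metallothioneins.

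Levels are given as log2 of the deposited signal plus 16, on which 1 unit is a doubling, the lowest possible level is 4, and a group mean under 5 is near that floor. The tissue matched its label in both groups. Mean levels in water and at 10 ppm were 14.79 and 14.93 for the uroplakin Upk1b, 13.29 and 13.46 for the basal keratin Krt5, and 15.32 and 15.32 for smooth muscle actin Acta2. The whole wall was on the arrays, so fewer cells of a type and less RNA per cell cannot be told apart in anything below. RNA integrity numbers were 8.4, 8.5 and 9.3 for 10 ppm arrays 3, 4 and 5, are not given for arrays 1 and 2, and ran from 8.8 to 9.7 in water; the difference between groups had an exact two-sided permutation p of 0.143. The other 6 array measures compared (absorbance ratio, poly-A spikes, hybridization controls, actin and Gapdh 3' to 5' differences, array median) had exact permutation p from 0.127 to 1.

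Genes that fell outnumbered those that rose. Among 14642 genes tested with limma, 114 passed an adjusted p under 0.05 (0.779%): 19 were higher at 10 ppm (0.13%) and 95 were lower (0.649%). The rises included Ivl and Cers3, genes of the squamous epithelial barrier, and the cytokine Il1f10, and the falls included the potassium channel Kcna1, the stress gene Gadd45g, the receptors Pdgfrb, Igf2r and Tnfrsf12a, and the matricellular gene Ccn2. Most changes were below a doubling: 71 of the 114 reached 1.5-fold and 11 reached 2-fold. In 93 of the 114 the ranges of the 2 groups did not overlap, 15 of them rises and 78 falls, where 834 of all genes tested (5.7%) had groups that did not overlap. At an unadjusted p under 0.05 the directions were closer to even, with 1186 genes higher (8.1%) and 1318 lower (9%), and the median difference of all genes was 0.0087. The split moved with the processing: it was 54 higher and 144 lower after quantile normalization, 578 and 684 with array weights, and 272 and 343 with the arrays of the 2 groups fitted alone.

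The number of genes past the threshold depended on single arrays. Leaving out 10 ppm arrays 1 to 5 in turn gave 437, 44, 38, 20 and 52 genes, and leaving out water arrays 1 to 5 gave 136, 50, 21, 40 and 33. All 114 differences kept their sign in each of these 10 fits. For each of the 114 genes, however, all 10 ppm arrays lay on 1 side of the water mean. Leaving out 10 ppm arrays therefore could not change a sign. Nor could leaving out water arrays for the 93 genes whose groups did not overlap. Arrays 3 and 4 at 10 ppm, those with RNA integrity under 8.8, held the most extreme value of the 10 ppm group in 65 of the 95 falls and 15 of the 19 rises. The same count was not made over all genes. At 2 ppm, 3 arrays had RNA integrity of 7.2. Their difference from the other 2 had a median of 0.166 over the 95 falls and -0.108 over the 19 rises. Over all genes it was 0.0019. The part of RNA integrity was not tested. Without 10 ppm arrays 3 and 4, 2 genes passed, Kcna1 and Zfp451 (a SUMO ligase). The median over the 95 falls then went from -0.643 to -0.552, and that over the 19 rises from 0.645 to 0.541. No sign could change here, since all 10 ppm arrays lay on 1 side of the water mean.

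**Figure D1:**
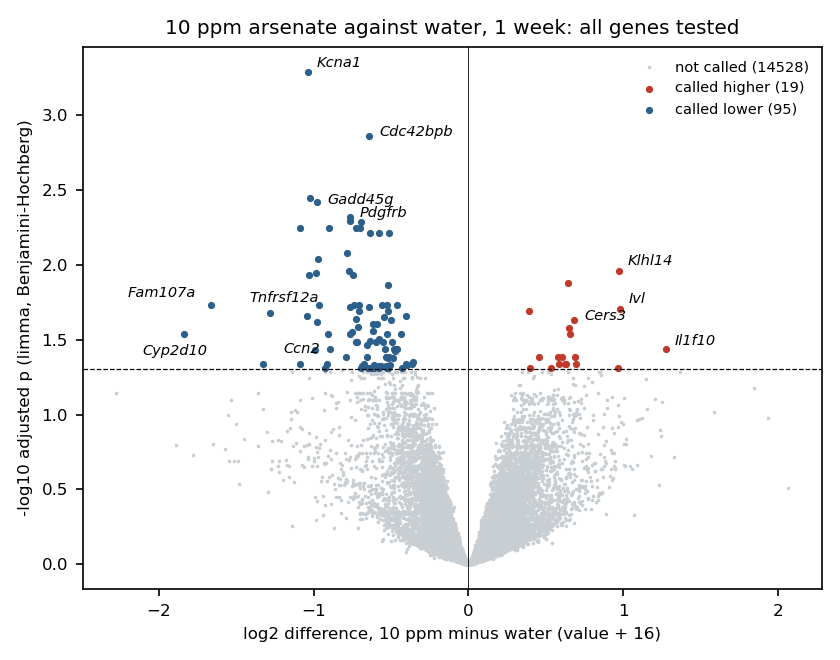
Each point is 1 of the 14642 genes, with the log2 difference of 10 ppm minus water on the horizontal axis and the -log10 of the adjusted p (limma, Benjamini-Hochberg) on the vertical axis; the dashed line marks an adjusted p of 0.05. The 95 blue points (lower) outnumber the 19 red points (higher), and Kcna1 has the smallest adjusted p, 5.2e-04.

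Among the rises, Ivl had the second largest difference. Ivl, involucrin, is a scaffold protein of the cornified envelope of squamous epithelia. Its levels in water arrays 1 to 5 were 11.77, 11.75, 11.47, 11.69 and 12.14, and at 10 ppm 12.42, 12.55, 13.0, 12.95 and 12.81. Every 10 ppm array lay above every water array, and the difference was 0.98 ± 0.20 (SE; limma adjusted p = 0.0197). A second Ivl probe set was also higher, by 1.13 (adjusted p = 0.0457 over all single-gene probe sets). Cers3, the synthase of very long chain ceramides of the epidermal barrier, measured 11.40, 10.95, 10.94, 10.98 and 11.28 in water and 11.38, 11.70, 11.98, 12.08 and 11.81 at 10 ppm. Array 1 at 10 ppm fell within the water range and the other 4 lay above it, with a difference of 0.68 ± 0.14 (limma adjusted p = 0.0234). Il1f10, an interleukin-1 family cytokine also known as IL-38, was low in both groups. Its water values were 5.44, 6.82, 6.38, 5.06 and 5.35, and its 10 ppm values 7.42, 6.52, 7.38, 6.91 and 7.24, so that water array 2 lay above 10 ppm array 2 and the groups overlapped. The difference, 1.28 ± 0.29 (limma adjusted p = 0.0365), was the largest rise among genes that passed.

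Klhl14, a Kelch-family adaptor protein, measured 7.19, 6.66, 6.90, 6.27 and 6.82 in water and 7.42, 8.11, 7.61, 7.80 and 7.78 at 10 ppm. All treated arrays were higher than all water arrays, by 0.98 ± 0.18 on average, with the smallest adjusted p among the rises (limma, 0.0110). Esyt3, a tether between the endoplasmic reticulum and the plasma membrane, rose by 0.65 ± 0.12 (limma adjusted p = 0.0133), and its groups did not overlap. The small GTPase Rab14, which acts in endosome and Golgi traffic, was higher by 0.65 ± 0.14 (limma adjusted p = 0.0291), as was Cacybp, a calcyclin-binding protein of the ubiquitin pathway, by 0.65 ± 0.14 (limma adjusted p = 0.0266). Rab14 has other probe sets that moved the opposite way, so its rise holds for the probe set used. Further rises were those of Lipo3, a lipase-family gene, by 0.69 ± 0.17, the membrane mucin-like Tmem123 by 0.69 ± 0.16, Cdc73, a subunit of the PAF1 transcription complex, by 0.63 ± 0.15, and Rint1, a trafficking protein, by 0.63 ± 0.15, with limma adjusted p from 0.0416 to 0.0459. Atp2a1, the calcium pump of fast skeletal muscle, stood at low levels and rose from a mean of 5.20 to 6.17 (0.97 ± 0.24; limma adjusted p = 0.0486). It was the 1 gene past the threshold of 12 skeletal muscle genes, of which 5 were above water and 7 below (median -0.162); Ckm, muscle creatine kinase, differed by -0.60 ± 0.17 (limma adjusted p = 0.0802).

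Kcna1, the voltage-gated potassium channel Kv1.1, had the smallest adjusted p of all genes. Its water arrays were tightly grouped at 8.44, 8.40, 8.45, 8.38 and 8.30, and the 10 ppm arrays at 7.16, 7.26, 7.61, 7.25 and 7.52. The gap between the lowest water and the highest treated array was wider than the whole water range, and the difference was -1.03 ± 0.14 (limma adjusted p = 5.2e-04). All 4 Kcna1 probe sets were lower at 10 ppm, by -1.03, -0.29, -0.48 and -0.13, the first alone past the threshold over all probe sets. Gadd45g, a growth arrest and DNA damage inducible gene, measured 9.54, 9.87, 9.89, 10.11 and 10.64 in water and 9.23, 8.99, 9.17, 8.69 and 9.07 at 10 ppm. No treated array reached a water array, and the gene fell by 0.98 ± 0.16 on the log2 scale (limma adjusted p = 0.00385). Like the other genes below that lie outside the 12 largest rises and falls and the lists, it was chosen after its values were seen.

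Several falls were those of receptors or their ligands, grouped here after their values were seen. Pdgfrb, the PDGF receptor of pericytes and other mesenchymal cells, measured 11.86, 11.62, 11.91, 11.66 and 11.94 in water and 11.20, 11.07, 10.91, 11.11 and 10.86 at 10 ppm. Its groups were separate, with a difference of -0.77 ± 0.13 (limma adjusted p = 0.00479), and a second probe set was lower by -0.53. Igf2r, which clears IGF2 and carries lysosomal enzymes, measured 11.50, 11.72, 11.71, 11.58 and 11.52 in water and 10.91, 10.94, 10.48, 10.60 and 11.26 at 10 ppm. Array 5 was the nearest to water and still below it; the difference was -0.77 ± 0.13 (limma adjusted p = 0.00511). Tnfrsf12a, the TWEAK receptor Fn14, measured 9.71, 9.94, 10.43, 10.00 and 10.89 in water and 9.64, 9.23, 8.06, 8.50 and 9.13 at 10 ppm. Arrays 3 and 4 were lowest and array 1 sat just under the water range, for a difference of -1.28 ± 0.27 (limma adjusted p = 0.0209); both its probe sets were past the threshold over all probe sets, at -1.28 and -1.07. Hbegf, an EGF receptor ligand, fell by 0.71 ± 0.15 on the log2 scale (limma adjusted p = 0.0205), Fzd2, a Wnt receptor, by 0.64 ± 0.14, and Acvrl1, a BMP receptor of endothelium, by 0.61 ± 0.15. Stat3, the transcription factor downstream of interleukin-6 family cytokines, was also lower, by -0.48 ± 0.11 (limma adjusted p = 0.0379).

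Other falls were in genes of the actin cytoskeleton, adhesion and matrix, likewise grouped afterwards. Cdc42bpb, a kinase that drives actomyosin contraction downstream of Cdc42, measured 10.18, 10.14, 10.04, 10.29 and 10.28 in water and 9.59, 9.73, 9.47, 9.37 and 9.55 at 10 ppm. Both groups were narrow and did not overlap, and the difference of -0.64 ± 0.09 had the second smallest adjusted p (limma, 0.00138). Tmod2, a cap of actin filament ends, fell by 0.97 ± 0.18 on the log2 scale, Mrtfa, the actin-sensing partner of serum response factor, by 0.51 ± 0.12, and Ssh1, which activates cofilin, by 0.36 ± 0.08. Cap1, an actin-binding protein, was lower by -0.99 ± 0.23 with 10 ppm array 1 inside the water range. Fam107a, an actin-binding protein known to be induced by glucocorticoids, measured 7.26, 6.73, 8.59, 8.19 and 7.24 in water and 6.32, 5.63, 6.13, 5.70 and 5.93 at 10 ppm. Water arrays 3 and 4 were the highest, the groups were separate, and the fall was 1.66 ± 0.34 (limma adjusted p = 0.0187). Among matrix genes, Emilin1, an elastic fibre glycoprotein, measured 10.48, 10.77, 10.83, 10.87 and 10.89 in water and 10.19, 9.75, 9.61, 9.52 and 9.85 at 10 ppm. Its highest treated array was array 1, still under the lowest water array, and the difference was -0.98 ± 0.19 (limma adjusted p = 0.0113). Lama2, a laminin chain of muscle basement membrane, was lower by -0.53 ± 0.12, Mxra8, a matrix remodelling-associated membrane protein, by -0.56 ± 0.11, and Htra1, a secreted serine protease, by -0.52 ± 0.13.

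Further genes that fell have various roles. Rest, a repressor of neuronal genes, was lower by -0.74 ± 0.15, Kdm6b, a histone H3 lysine demethylase, by -0.58 ± 0.10, Pim1, a serine kinase, by -0.51 ± 0.12, and Usp2, a deubiquitinase tied to the circadian clock, by -0.97 ± 0.20. Sntb2, a syntrophin adaptor of the dystrophin complex, was lower by -1.09 ± 0.19 (limma adjusted p = 0.00572), the microtubule-binding Eml2 by -1.02 ± 0.16 (limma adjusted p = 0.00359), and the splicing regulator Rbfox2 by -1.03 ± 0.20 (limma adjusted p = 0.0117). Tent5b, a poly(A) polymerase family member, differed by -1.04 ± 0.22, and Fxyd7, a sodium pump regulator best known in brain, by -1.33 ± 0.32. Sntb2, Rbfox2, Rest, Ssh1, Fam107a, Cdc73 and Zfp451 each have at least 1 probe set of the opposite sign, with 4 of 7 probe sets of Cdc73 and 2 of 4 of Rest on the side reported. Of the 114 genes, 72 have several probe sets that passed the filter; all had the same sign in 45 and some had the opposite sign in 27.

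**Figure D2:**
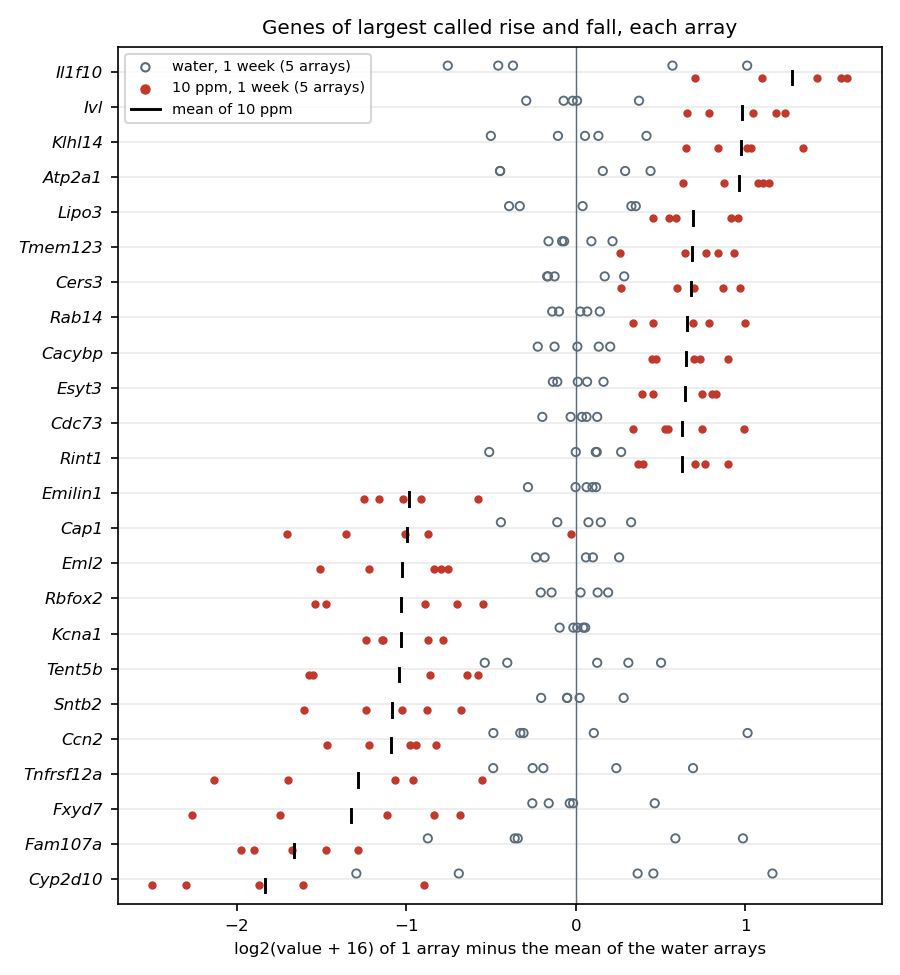
Levels of the 12 genes of largest rise and the 12 of largest fall among those that passed the threshold, as log2(value + 16) of each array minus the mean of the 5 water arrays; open circles are water arrays, filled circles are 10 ppm arrays and the bar is the 10 ppm mean. Il1f10, Cers3, Cap1 and Cyp2d10 have overlapping groups, and Kcna1 has the narrowest spread among water arrays.

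Promoter sequence was examined for the genes that passed. RefSeq promoters (build GRCm38.p6, 250 bases before the start) were matched for 85 of the 114 genes, with 109 windows, and 5 short motifs were searched on both strands. The AP-1 motif TGANTCA, read by Fos and Jun proteins, is in 6.75% of all 32851 windows, in 3 of the 94 windows of genes that fell and in 2 of the 15 of genes that rose, that of Ivl among them. The cyclic AMP response element TGACGTCA is in 1.55% of all windows, in 3 of 94 and in 0 of 15. The E-box CACGTG, read by clock and MYC-family proteins, is in 6.02% of all windows, in 13 of 94 (13.8%) and in 0 of 15. The antioxidant response element core TGACNNNGC, read by NRF2, is in 10.2% of all windows, in 10 of 94 (10.6%) and in 4 of 15, and GGAATG, read by the TEAD partners of YAP, is in 12.6% of all windows, in 10 of 94 and in 0 of 15. A match describes letters in the window and not binding. The windows of 4 genes named in this text are shown because each holds a match to a motif of a stress or growth pathway, and the match in capitals is that of the motif named with it. The Gadd45g window also holds the antioxidant core, which is not in capitals. They are Ivl at chr3:92573736-92573985 on the minus strand (AP-1 motif, ending 110 bases before the start), Cers3 at chr7:66743254-66743503 on the plus strand (antioxidant core read on the reverse strand, 117 bases), Gadd45g at chr13:51846425-51846674 on the plus strand (E-box, 137 bases) and Errfi1 at chr4:150854820-150855069 on the plus strand (cyclic AMP element, 44 bases; a second Errfi1 window lacks it).
Ivl: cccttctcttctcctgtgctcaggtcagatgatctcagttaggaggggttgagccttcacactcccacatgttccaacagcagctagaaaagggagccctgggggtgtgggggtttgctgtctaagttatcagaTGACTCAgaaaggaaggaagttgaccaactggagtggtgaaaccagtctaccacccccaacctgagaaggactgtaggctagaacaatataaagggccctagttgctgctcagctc
Cers3: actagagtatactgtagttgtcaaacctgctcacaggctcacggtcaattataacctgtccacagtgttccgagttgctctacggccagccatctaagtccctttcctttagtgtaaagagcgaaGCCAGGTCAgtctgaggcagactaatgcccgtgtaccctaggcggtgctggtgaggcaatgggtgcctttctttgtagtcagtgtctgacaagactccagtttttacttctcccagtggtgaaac
Gadd45g: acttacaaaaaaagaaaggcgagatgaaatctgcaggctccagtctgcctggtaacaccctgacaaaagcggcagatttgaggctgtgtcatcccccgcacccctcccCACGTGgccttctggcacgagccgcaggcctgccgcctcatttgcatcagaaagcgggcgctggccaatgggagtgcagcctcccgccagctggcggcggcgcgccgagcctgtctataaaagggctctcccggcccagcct
Errfi1: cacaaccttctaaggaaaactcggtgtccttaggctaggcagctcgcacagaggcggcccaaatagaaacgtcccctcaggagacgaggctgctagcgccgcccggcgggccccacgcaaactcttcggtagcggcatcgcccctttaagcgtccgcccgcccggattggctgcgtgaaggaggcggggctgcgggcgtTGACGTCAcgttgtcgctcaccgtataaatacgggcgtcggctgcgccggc

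The 8 arsenic-related genes named for this comparison did not pass the threshold at this dose and time. Slc30a1, the zinc exporter induced by metals through MTF1, had the largest difference of the 8, 0.38 ± 0.19 (limma adjusted p = 0.315). It measured 8.09, 9.05, 9.24, 9.01 and 9.13 in water and 9.01, 8.83, 9.57, 9.53 and 9.48 at 10 ppm, so the groups overlapped and water array 1 stood low. Hmox1, heme oxygenase, measured 7.90, 8.32, 8.63, 8.64 and 8.48 in water and 8.75, 8.71, 8.15, 7.89 and 8.65 at 10 ppm. The treated arrays spanned nearly the same range as the controls, with a difference of 0.04 ± 0.17 (limma adjusted p = 0.934). The NRF2 targets Nqo1, Gclm and Txnrd1 differed by 0.05 ± 0.12, -0.01 ± 0.09 and 0.03 ± 0.09. The metallothioneins Mt1 and Mt2, already abundant in water at means of 12.93 and 12.05, differed by -0.08 ± 0.11 and 0.09 ± 0.12, and As3mt by -0.01 ± 0.11. Over the wider lists, 0 of 30 NRF2 targets passed by limma (4 were higher and 0 lower at an unadjusted p under 0.05; list median 0.049), with malic enzyme Me1 at 0.44 ± 0.12 (limma adjusted p = 0.0752) and Ugdh, which makes UDP-glucuronate, at 0.37 ± 0.13. Metal-response genes had 0 of 12 past the threshold by limma (1 at an unadjusted p under 0.05) and a median of 0.122. Arsenic uptake, methylation and efflux genes had 0 of 22 by limma (4 at an unadjusted p under 0.05, 2 each way) and a median of 0.020. Of all genes tested, 17.1% had an unadjusted p under 0.05 (limma).

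The 44 lists of pathway and cell type genes name 883 genes, not all of them measured. Of these, 9 genes passed the threshold, beside the 0.779% of all genes. The list counts here and below stand beside 48.6% of all genes below water and 17.1% at an unadjusted p under 0.05 (limma). Urothelial lists leaned above water: of 17 umbrella and intermediate cell genes 14 were above and 3 below, with a median of 0.106 against 0.0087 for all genes, 0 past the threshold by limma and 4 at an unadjusted p under 0.05. Among them Cldn4, a tight junction claudin, differed by 0.42 ± 0.12 (limma adjusted p = 0.0727), Gata3, a urothelial transcription factor, by 0.40 ± 0.12, Cldn8 by 0.51 ± 0.19 and the umbrella keratin Krt20 by 0.36 ± 0.14. The uroplakin Upk2 stood at 13.97 in water and 14.04 at 10 ppm. Basal cell genes had 10 of 12 above water, a median of 0.151 and 0 at either threshold by limma, with Trp63, the p63 regulator of basal cells, at 0.38 ± 0.19. The squamous list had 1 of 17 past the threshold, Ivl, and a median of 0.058; keratins Krt10 and Krt1 differed by 0.35 ± 0.11 and 0.34 ± 0.13 (limma adjusted p = 0.0915 and 0.184).

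Lists of smooth muscle, matrix, endothelium, interstitial cells with pericytes, and fibroblasts had medians below water. All 16 smooth muscle genes were below water by their mean, with a median of -0.129, 0 past the threshold by limma and 3 at an unadjusted p under 0.05: Smtn, smoothelin, at -0.59 ± 0.15 (limma adjusted p = 0.0567), Myocd, the smooth muscle coactivator, at -0.64 ± 0.21 and Pgm5 at -0.39 ± 0.12. The mean level of this list ran from 13.39 to 13.73 in water and from 13.19 to 13.53 at 10 ppm, so the groups overlapped. Collagen and matrix genes were below water in 26 of 31, with a median of -0.240; 0 passed by limma and 13 were lower at an unadjusted p under 0.05, among them the gelatinase Mmp2 at -0.47 ± 0.12 (limma adjusted p = 0.0517), Fbln5, an elastic fibre protein, at -0.43 ± 0.11, Thbs2 at -0.43 ± 0.12 and Fbln1 at -0.36 ± 0.12. Endothelial genes had 10 of 14 below water, a median of -0.163, 0 past the threshold by limma and 5 at an unadjusted p under 0.05, with Vwf, von Willebrand factor, at -0.53 ± 0.18 and Sox18 at -0.46 ± 0.18. The interstitial cell and pericyte list had 1 of 9 past the threshold, Pdgfrb. Its summed linear signal was higher at 10 ppm, with a median of 19607 in water and 20326 at 10 ppm. Fibroblast genes had 0 of 13 past the threshold by limma (4 at an unadjusted p under 0.05), with Clec3b at -0.59 ± 0.18. Some other cell types had medians above water: adipocyte genes were above in 8 of 9 (median 0.299), mast cell genes in 5 of 5 (median 0.197) and T cell genes in 5 of 8 (median 0.095). The summed linear T cell signal was lower at 10 ppm, with a median of 3154 in water and 2539 at 10 ppm. Mean list levels in water and at 10 ppm were 8.33 and 8.24 for Schwann cells and neurons, and 7.02 and 6.95 for B and plasma cells. The summed signal of Schwann cells and neurons was higher at 10 ppm, with a median of 14478 in water and 15275 at 10 ppm.

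Immediate early genes, the transcripts that cells switch on within minutes of a growth or stress signal, had 1 of 30 past the threshold. That gene was Ccn2, a matricellular target of YAP, which measured 10.20, 10.36, 10.38, 10.79 and 11.70 in water and 9.75, 9.22, 9.46, 9.86 and 9.71 at 10 ppm. Water array 5 was the highest and no treated array reached the water range; the difference was -1.09 ± 0.26 (limma adjusted p = 0.0459). The list was below water in 23 of 30 with a median of -0.293, and 10 were lower at an unadjusted p under 0.05, among them the AP-1 subunits Jun at -0.69 ± 0.18 (limma adjusted p = 0.0569) and Junb at -0.69 ± 0.19, and the antiproliferative Btg2 at -0.67 ± 0.20. Glucocorticoid targets had 2 of 17 past the threshold. Cebpd, a leucine zipper factor, measured 10.14, 10.36, 10.63, 10.37 and 10.52 in water and 10.06, 9.53, 9.35, 9.59 and 9.63 at 10 ppm. Array 1 came close to water without reaching it, and Cebpd fell by 0.77 ± 0.15 on the log2 scale (limma adjusted p = 0.0110), with another probe set of the opposite sign. Errfi1, a feedback inhibitor of the EGF receptor, was lower by -0.48 ± 0.11 (limma adjusted p = 0.0365). Zbtb16 at -0.68 ± 0.19 and Tsc22d3 (GILZ) at -0.69 ± 0.19, both classical glucocorticoid-induced genes, did not pass (limma adjusted p = 0.0719 for each). Clock genes had 0 of 18 past the threshold by limma (2 higher and 4 lower at an unadjusted p under 0.05) and a median of -0.017, with Nfil3 at -0.90 ± 0.23, Nr1d2 at 0.65 ± 0.21 and Cry1 at -0.53 ± 0.18.

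Stress and metabolic lists were mixed. Heat shock genes had 1 of 21 past the threshold: Hspb8, a small heat shock protein abundant in muscle, which was lower by -0.53 ± 0.13 (limma adjusted p = 0.0478). Others of the list stood on both sides, the mitochondrial chaperonin Hspd1 at 0.51 ± 0.14, the cochaperone Dnaja1 at 0.55 ± 0.17 and Dnajb5 at -0.68 ± 0.18. Unfolded protein response genes had 0 of 26 by limma (4 higher and 0 lower at an unadjusted p under 0.05) and a median of 0.101, with the chaperones Canx at 0.38 ± 0.12 and Hspa5 at 0.35 ± 0.16. Fatty acid oxidation and PPAR genes had 1 of 21 past the threshold, the receptor Ppara itself, which was lower by -0.67 ± 0.16 (limma adjusted p = 0.0461). The enzymes it is known to induce stood above water, Acadl at 0.34 ± 0.09 (limma adjusted p = 0.0517) and Cpt1a at 0.32 ± 0.10, and 16 of 21 members were above water with a median of 0.174. Interferon-response genes had 19 of 23 above water, a median of 0.195, 0 past the threshold by limma and 5 at an unadjusted p under 0.05. Oas3, an antiviral synthetase, measured 4.89, 5.05, 4.46, 4.57 and 4.22 in water and 5.53, 6.74, 6.39, 6.60 and 4.75 at 10 ppm. All water arrays but array 2 lay under 5, near the floor, and 10 ppm array 5 lay within it (1.37 ± 0.34; limma adjusted p = 0.0517). Cell cycle genes had 0 of 35 by limma (4 at an unadjusted p under 0.05), with the ribonucleotide reductase subunit Rrm1 at 0.46 ± 0.15, and their median was -0.038.

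**Figure D3:**
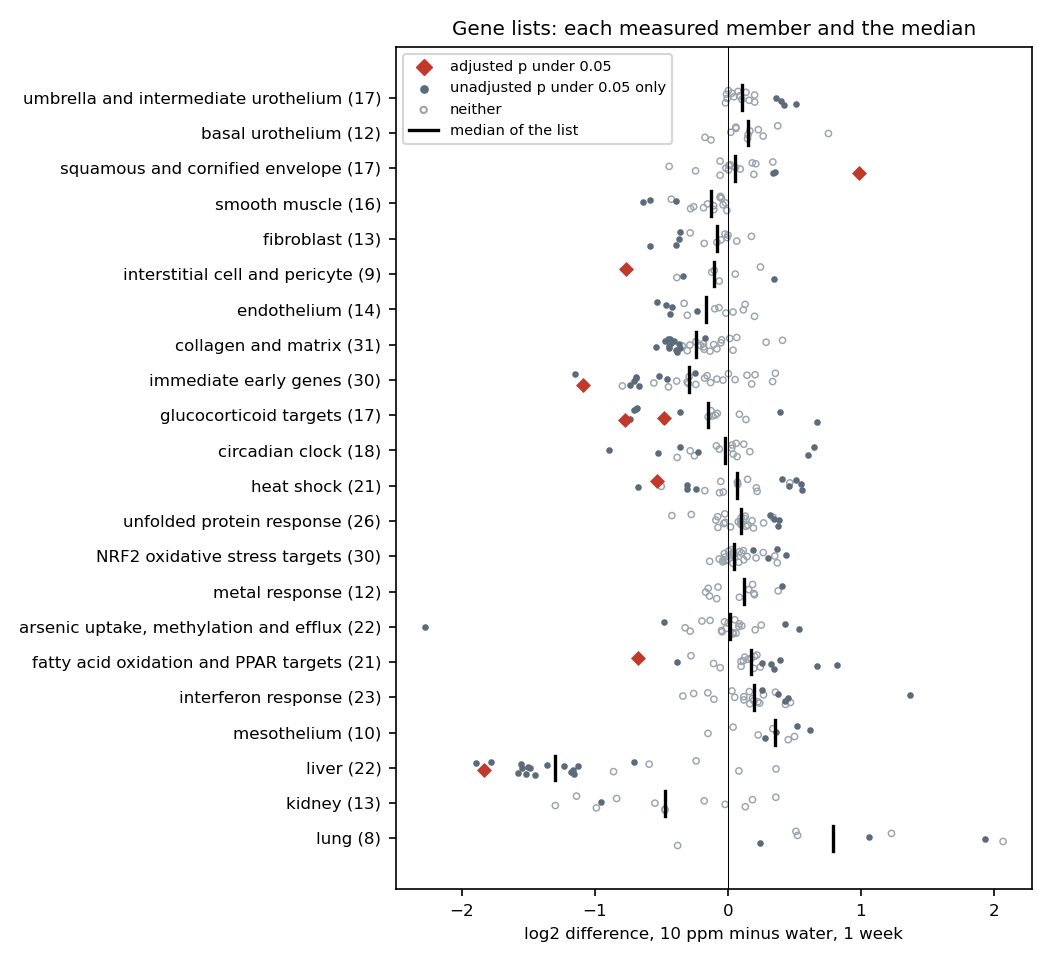
Log2 difference of 10 ppm minus water for each measured member of 22 of the 44 lists (number measured in brackets), with a bar at the list's median; diamonds passed an adjusted p of 0.05 (limma) and filled circles an unadjusted p of 0.05 only. The liver list lies furthest to the left, with a median of -1.296, and all 16 smooth muscle genes lie at or left of 0.

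Marker lists of organs other than the bladder were also read. Of 27 liver markers 22 were measured, and 20 of the 22 were below water, with a median of -1.296; 17 were lower at an unadjusted p under 0.05 and 1 passed the threshold, the hepatic cytochrome P450 Cyp2d10. It measured 5.48, 6.09, 7.94, 7.14 and 7.24 in water and 5.17, 4.28, 5.88, 4.91 and 4.48 at 10 ppm, the only gene of the 114 whose 10 ppm mean was near the floor. Treated array 3 was above the lowest water array, and the difference was -1.84 ± 0.41 (limma adjusted p = 0.0291). Plasminogen Plg differed by -1.55 ± 0.48, fibrinogen Fga by -1.50 ± 0.49 and the glycine methyltransferase Gnmt, of the arsenic list and abundant in liver, by -2.28 ± 0.62. The mean level of the liver list was 7.03, 7.49, 9.09, 8.51 and 9.08 in the water arrays and 7.33, 6.64, 7.56, 6.89 and 7.03 at 10 ppm: water arrays 3, 4 and 5 stood high, while water arrays 1 and 2 were within the treated range. Its summed linear level ran from 11270 to 32265 in water (median 18218) and from 13659 to 20932 at 10 ppm (median 17386); Cyp2d10 and Fgb were near the floor at 10 ppm and none was in water. With the liver level as a covariate, 2 genes passed the threshold, Kcna1 at -1.0 and Cdc42bpb at -0.63, while all 114 differences kept their sign at a median of 0.897 times their size; the part of these transcripts in the other differences was not tested further. Of 9 lung markers 8 were measured and 7 were above water, with a summed level of 7453 to 8724 in water and 8942 to 13400 at 10 ppm, and Sftpa1 near the floor in water. The secretoglobin Scgb3a2 measured 6.18, 4.72, 4.27, 5.18 and 4.73 in water and 5.51, 8.21, 6.16, 8.20 and 6.67 at 10 ppm, high in arrays 2 and 4, and did not pass (1.94 ± 0.61; limma adjusted p = 0.105). Kidney markers summed to 608 to 1855 in water and 497 to 684 at 10 ppm (13 of 14 measured; Slc22a8 near the floor in both groups, Slc12a3 at 10 ppm). Mesothelial genes, markers of the outer bladder surface, had 9 of 10 above water and a median of 0.352, with Rspo1 at 0.62 ± 0.18 and Wt1 at 0.52 ± 0.21; 0 passed by limma and 4 were higher at an unadjusted p under 0.05.

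At the other doses of the same harvest, against the 114 genes of 10 ppm, 7 passed at 0.5 ppm (0.0478%), 0 at 2 ppm and 49 at 50 ppm (0.335%; 13 higher, 0.0888%, and 36 lower, 0.246%). The count at 10 ppm was under 49 in 6 of the 10 fits that left out 1 array, and the counts of the other doses were not recomputed in that way. All 4 comparisons share the water arrays, and the values are given side by side only. Arrays 3, 4 and 5 at 2 ppm had RNA integrity numbers of 7.2. They also enter the estimate of spread that all groups of the harvest share. Over the 95 genes that fell at 10 ppm the median difference from water was -0.465 at 0.5 ppm, -0.335 at 2 ppm, -0.643 at 10 ppm and -0.260 at 50 ppm. Over the 19 that rose the medians were 0.463, 0.304, 0.645 and 0.133. These genes, Ivl and Kcna1 among them, were chosen for their 10 ppm difference. That choice favours the largest difference at 10 ppm, so these values cannot show a peak at that dose. Mean Ivl was 11.76 in water, 12.43 at 0.5 ppm, 12.15 at 2 ppm, 12.75 at 10 ppm and 11.97 at 50 ppm. Kcna1 was at 8.39, 7.80, 7.97, 7.36 and 8.12 in the same order. For both genes the level at 50 ppm was nearer to water than that at 10 ppm. Cyp2d10 differed from water by 0.18 and -0.30 at 0.5 and 2 ppm; at 10 and 50 ppm its means, 4.94 and 4.48, were both near the floor and have no order. Ccn2 was lower by much the same amount at each dose, -0.87, -0.92, -1.09 and -0.95.

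**Figure D4:**
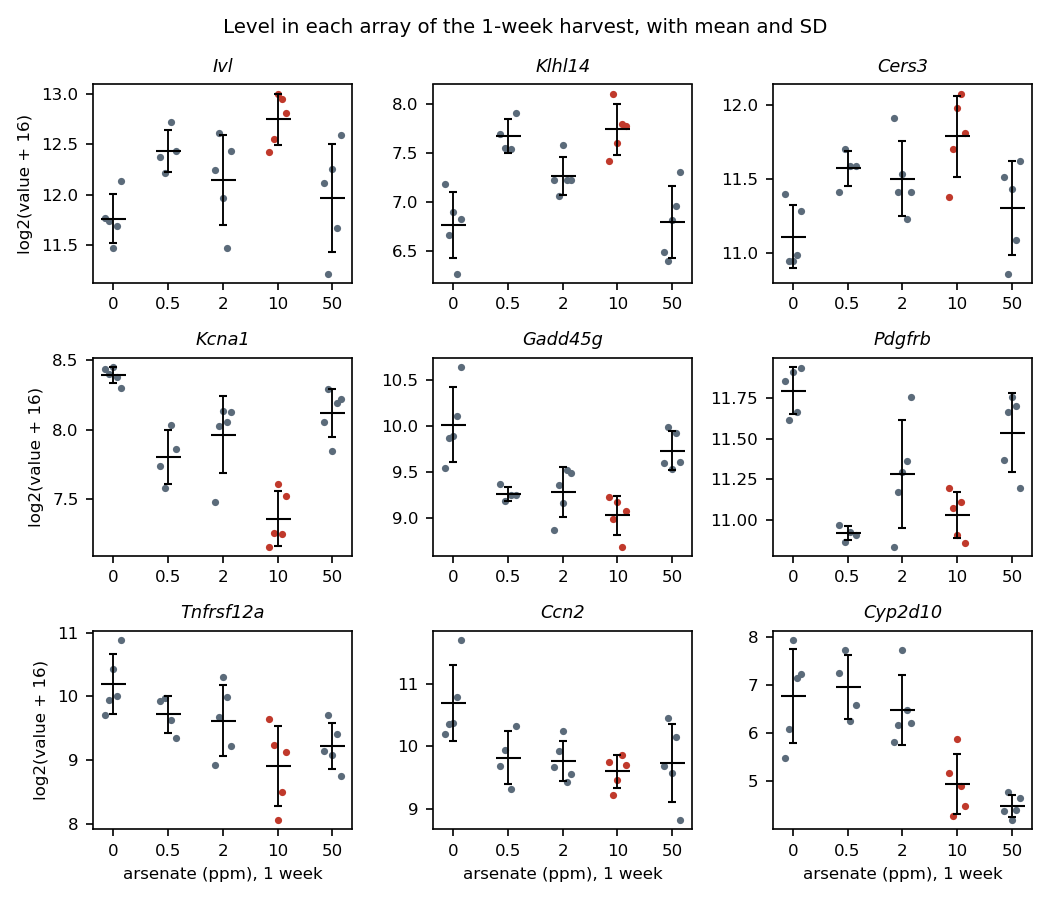
Level of 9 genes, as log2(value + 16), in every array of the 1-week harvest against the arsenate concentration in ppm (categories, not to scale), with the mean and SD; the 10 ppm arrays are in red. Ivl and Klhl14 are highest and Kcna1 lowest at 10 ppm by the mean, while Cyp2d10 is near the floor at both 10 and 50 ppm. The genes shown were chosen for their difference at 10 ppm.

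In direct tests between doses, genes passed the threshold against 50 ppm and not against the lower doses. Against 0.5 ppm 0 genes passed by limma (548 at an unadjusted p under 0.05, 3.74%), the smallest p values being those of Cyp2d10 (-2.01 ± 0.43), Cd244a, a lymphocyte receptor (1.29 ± 0.29), and the noncoding Rian (-0.75 ± 0.18), with limma adjusted p of 0.887 to 0.995. Against 2 ppm 0 passed by limma (819 at an unadjusted p under 0.05, 5.59%), led by the macrophage gene Mpeg1 (0.82 ± 0.18), Kcna1 (-0.60 ± 0.14) and Tmod2 (-0.79 ± 0.18), each at a limma adjusted p of 0.456. Against 50 ppm 817 genes passed (5.58%), 423 higher at 10 ppm (2.89%) and 394 lower (2.69%). The largest were the nuclear noncoding RNA Malat1 (1.98 ± 0.42; limma adjusted p = 0.0133), the urinary protein gene Mup5 (1.35 ± 0.37, with a mean of 4.84 near the floor at 50 ppm) and the mitochondrial synthase Oxsm (1.29 ± 0.29) among the higher, and Pnmt, of adrenaline synthesis (-1.59 ± 0.44), the galanin receptor Galr2 (-1.30 ± 0.27) and Scube3 (-1.27 ± 0.26) among the lower. Genes chosen for their difference from water, which used the same 10 ppm arrays, are given here as values and not as support: Ivl differed by 0.77 ± 0.20 (limma adjusted p = 0.0280), Klhl14 by 0.95, Kcna1 by -0.76, Gadd45g by -0.70, Igf2r by -0.53 and Pdgfrb by -0.51. Heat shock genes had 5 of 21 higher at 10 ppm than at 50 ppm and 0 lower, among them Hsp90aa1 by 0.81, and RNA splicing genes 6 of 34 higher, among them Malat1 and Srsf1; endothelial genes had 2 of 14 lower, Sox18 and Egfl7 (-0.77). This count rested on the pooled fit and on few arrays: it was 0 with the arrays of these 2 doses alone and 9 without the 10 ppm arrays of RNA integrity under 8.8, and leaving out 1 array at a time gave 130 to 2096.

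At 12 weeks the same dose gave another picture. Of the 114 genes, the 95 that fell at 1 week had a median difference from the 12-week water arrays of -0.0071, with 48 of 95 below water, and the 19 that rose had 0.136, with 12 of 19 above; all genes had a median of -0.030 with 54.8% below. At 12 weeks 49 genes passed the threshold for 10 ppm against water (0.335%). The 2 sets have 3 genes in common, 3 of 114 and 3 of 49, and each had opposite signs: Zfp451 at -0.78 and 0.69, the zinc finger gene Zfp871 at -0.51 and 0.48, and Slf2, of DNA repair, at -0.52 and 0.56. Over all genes tested the differences at 1 and 12 weeks correlated with a Pearson coefficient of 0.077 and a Spearman coefficient of 0.125; genes are not independent replicates. The difference between the harvests was tested as an interaction over all 49 arrays, and 201 genes passed (1.37%), 64 more positive at 1 week (0.437%) and 137 more negative (0.936%). Of the 114 genes 35 were among them, a count that uses the 1-week arrays that chose the genes. Poly-A spike levels ran from 10.29 to 11.30 in the 12-week water arrays and from 9.58 to 10.11 in the 12-week 10 ppm arrays. With these spikes as a covariate 223 genes passed, 72 of them among the 201. The part of the spikes in the differences between harvests was not tested further. Igf2r differed from water by -0.77 at 1 week and 0.49 at 12 weeks (difference -1.26; limma adjusted p = 3.41e-05), and Rbfox2 by -1.03 and 0.73. Klhl14, at 0.98 and -0.20, and Cers3, at 0.68 and -0.32, were among the rises that passed this test. The largest differences were those of the immediate early factor Egr1 (-0.56 at 1 week and -2.82 at 12 weeks; 2.26 ± 0.48), the sperm tail gene Odf1 (0.86 and -1.03, with 1-week water and 12-week 10 ppm means of 4.90 and 4.93, near the floor), the calcium channel Cacna1f (0.35 and -1.17), Fam107a (-1.66 and 0.59; -2.26 ± 0.47), Plg (-1.55 and 0.70, with a 12-week water mean of 4.58, near the floor) and the predicted gene Gm13306 (-0.87 and 1.20). The mean level of the liver list at 12 weeks was 6.33 in water and 6.24 at 10 ppm.

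**Figure D5:**
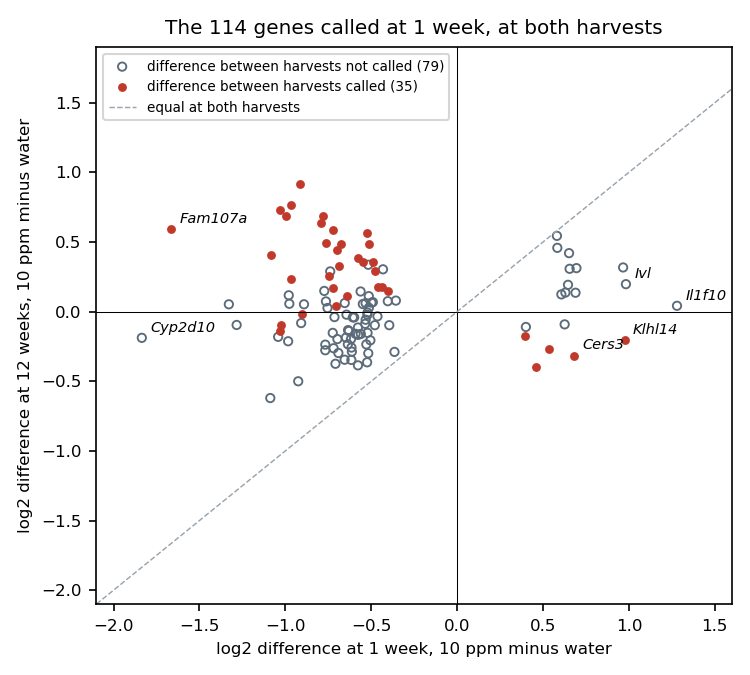
Each of the 114 genes that passed at 1 week is placed by its log2 difference of 10 ppm minus water at 1 week (horizontal) and at 12 weeks (vertical); filled points passed the test of the difference between harvests (35 genes) and the dashed line marks equal differences. The 95 falls spread on both sides of 0 at 12 weeks, 48 of them below.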

How the data were processed

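The deposited series matrix gives 1 signal intensity per probe set and array. The authors' values were made with GCOS 1.0, per the submitters' processing notes; no source used here states its settings. Each array had a 2% trimmed mean of 500.003 to 500.004, so arrays had been scaled to a common mean. RNA was extracted with Trizol and purified with a Qiagen method, per the labels' protocols.

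Of 45101 probe sets, 64 were controls and 34958 named 1 gene; probe sets of several genes (932) or none (9147) were left out. Values were taken as log2(intensity + 16), kept where above the array's 40th percentile in at least 4 of 49 arrays, and each of 14642 genes was read by its probe set of highest mean. Group means over the 24 one-week arrays were fitted with limma 3.58.1 (R 4.3.3; lmFit, eBayes with trend), with Benjamini-Hochberg adjustment over all genes and 0.05 as the threshold; the difference between harvests used all 49 arrays. The procedure was tested on simulated data. The p-values rest on the spread between mice within groups, pooled over all groups in the fit and not only those compared. The 5 arrays per group limit precision.

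Members and lists were chosen with earlier results of these data known. Named genes were the 12 largest rises and 12 largest falls among genes past the threshold, up to 4 members of smallest p per list, 8 arsenic-related genes, and 3 each way (or 3 of smallest p) for other comparisons; further names were chosen after their values were seen. Alternatives are in the closing section. Figures used Python 3.11.15 and matplotlib 3.10.9.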

Additional observations from a re-analysis of the deposited data

Results flagged for a closer look

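Of 223 groups of 5 arrays examined (named genes and array measures), 10 held an array apart from the other 4, where chance gives about 1 in 20; 3 were in 10 ppm and 7 in water. At 10 ppm, Vwf was lowest in array 4 (9.46), Pim1 in array 3 (8.72) and Usp2 in array 5 (7.13). In water, Slc30a1 was lowest in array 1 (8.09), Cldn4 in array 5 (11.92), Thbs2 in array 2 (11.13) and Zfp451 in array 1 (8.63). Jun was highest in water array 5 (11.75), Ifit3, an interferon-induced gene, in water array 2 (8.86), and the actin 3' to 5' difference in water array 2 (0.30).

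For 28 named genes the effect of 10 ppm at 1 week minus that at 12 weeks passed the interaction test (limma adjusted p under 0.05). The difference was positive for Klhl14 (1.18), Cers3 (1.00), Acadl (0.45), Rspo1 (1.29), Egr1 (2.26), Odf1 (1.89) and Cacna1f (1.52). It was negative among cytoskeleton and adhesion genes for Fam107a (-2.26), Sntb2 (-1.49), Eml2 (-0.93), Cap1 (-1.68), Cdc42bpb (-0.76), Rhoj (-1.0) and Tmod2 (-1.73). Negative values were also those of Kcna1 (-0.89), Rbfox2 (-1.76), Zbtb16 (-1.11), Tsc22d3 (-1.23), Ppara (-1.16), Plg (-2.25), Purb, a repressor of smooth muscle actin (-1.14), Igf2r (-1.26), Stat3 (-0.76), Usp2 (-1.20), Zfp871 (-0.99), Slf2 (-1.09), Zfp451 (-1.47) and Gm13306 (-2.07). Most of these genes had been chosen for their difference at 1 week, so the test shares arrays with the choice.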

How the results depend on the processing

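In each of the 114 genes all 10 ppm arrays lay on 1 side of the water mean, so leaving some out could not reverse a direction. Nor could leaving out water arrays for the 93 genes whose groups did not overlap. Changes of the filter, of the probe sets tested or of the other arrays in the fit left the difference of means as it was. So did a replicate block and a fold minimum, and no direction could change under these settings. The 114 genes kept their direction under the settings tried, wherever they had a value (113 of them after quantile normalization and 107 with a 60th percentile filter), but their number moved. It was 99 with an offset of 1, 131 with 64 and 156 with a 60th percentile filter, close to 114; it moved to 198 after quantile normalization (54 higher, 144 lower), 72 with no filter (11, 61), 369 over all single-gene probe sets (88, 281), 1262 with array weights (578, 684), 615 with the arrays of the contrast alone (272, 343), 736 with RNA integrity as a covariate (276, 460; arrays without a number left out), 74 with poly-A spikes (8, 66), 2 with liver markers (0, 2) and 71 with a 1.5-fold minimum (13, 58); in 1 fit of all 49 arrays it was 125 (30 higher). Chosen after seeing the data, leaving out the 10 ppm arrays of RNA integrity under 8.8 gave 2 (0, 2). Leaving out 1 array gave 20 to 437 (1 to 143 higher, 19 to 294 lower). Members of the lists past the threshold were 9, and 15 after quantile normalization, 27 over all probe sets and 1 to 47 with 1 array left out. With the replicate number as a block 74 genes passed (10 higher, 64 lower); the numbers do not pair the mice (correlations of deviations -0.086 to 0.025). Kcna1 passed in 25 of 25 settings, Cdc42bpb in 24 of 25, Atp2a1 in 8 of 24 and Htra1 in 8 of 25.

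Against 0.5 ppm the count was 0, and 1 with liver markers (Cyp2d10), and against 2 ppm 0, and 1 with RNA integrity (Galr2), 0 to 2 with 1 array left out. Against 50 ppm, 817 became 1341 over all probe sets, 0 with these groups alone, 1599 with RNA integrity, 1321 with liver markers, 336 at 1.5-fold, 9 without the lower-integrity arrays, 579 with the block and 130 to 2096 with 1 array left out. The 201 for the harvests became 602 over all probe sets, 771 with array weights, 43 without the lower-integrity arrays, 186 with the block and 108 to 339 with 1 array left out. With poly-A spikes the count was 223, but only 72 of the 201 were among them. Of the array measures 0 to 1 passed an unadjusted exact permutation p under 0.05 with 1 array left out. The measure that passed was RNA integrity, without 10 ppm array 5. The numbers left at 10 ppm were then 8.4 and 8.5, all below the water range of 8.8 to 9.7. Small differences changed sign: As3mt to 0.016 and Txnrd1 to -0.0063 without the lower-integrity arrays, Gclm to 0.020 with array weights, 0.070 with RNA integrity and 0.0041 with poly-A spikes, Hmox1 to -0.071 with RNA integrity and Nqo1 to -0.014 with liver markers. With 1 array left out the ranges were -0.084 to 0.173 for Hmox1, -0.053 to 0.148 for Nqo1, -0.069 to 0.047 for Gclm, -0.038 to 0.081 for Txnrd1, -0.133 to 0.0013 for Mt1, -0.056 to 0.031 for As3mt, -0.179 to 0.041 for the poly-A spikes, -0.076 to 0.052 for the hybridization controls, -0.0063 to 0.048 for the actin measure and -0.038 to 0.0048 for the array median. The causes were not tested.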

Other observations

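Some gene groups of other cell types and pathways, not covered by the comparison of lists above, had single members of large difference that did not pass the threshold. Sele, the endothelial selectin that captures leukocytes, differed by 0.93 ± 0.26 (limma adjusted p = 0.0763) and Ptgs2, the inducible cyclooxygenase, by -0.86 ± 0.26 (limma adjusted p = 0.0909), within a list of NF-kB genes that had 0 of 18 past the threshold by limma (4 at an unadjusted p under 0.05, 2 each way) and a median of 0.063. DNA repair genes had 22 of 31 above water and a median of 0.130, with 0 past the threshold by limma and 4 higher at an unadjusted p under 0.05. RNA splicing genes had 24 of 34 above water, with 0 past the threshold by limma and 16 at an unadjusted p under 0.05, 9 higher and 7 lower.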
